A study of Mus musculus with 12 samples.

Results

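The 37 genes described here act in DNA replication and in the synthesis of its nucleotides, and were listed by function: origin licensing, origin firing, polymerases and primase, the sliding clamp with its loader and lagging-strand enzymes, nucleotide synthesis, chromatin and histone supply, and E2F factors. Of these, 34 were measured among 12255 genes tested, and E2f2, Gins2 and Chaf1a were not analysed here. RNA was read in 2 mouse cell lines of the pancreatic islet, aTC1, called alpha cells, and bTC3, called beta cells, each treated for 5 days with 3.3 µM GW8510 in 0.1% DMSO or with 0.1% DMSO alone. That gave 4 groups of 3 arrays, labelled as biological replicates. For the second and the third GW8510 replicate of each line the labels conflict: the source name gives the compound as GW8511 and GW8512, whereas the title, description and compound entry give GW8510, which was used here. GW8510 is a small molecule known as a putative inhibitor of the cell cycle kinase CDK2, and the comparison asks what it changed in each line.

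Both lines are cultures grown from islet tumours of mice that carry the SV40 large T antigen, driven by the glucagon gene's promoter for aTC1 and by an insulin promoter for bTC3. All 4 groups share this transgene, whose protein binds the retinoblastoma protein, the inhibitor of E2F factors. The labels do not say which clone of aTC1 was used. Glucagon, Gcg, lay at the upper bound of the scale on all alpha arrays and was also read in the beta cells, at 5997 to 6647 in DMSO. Of the other alpha cell markers measured, Irx2 read 1828 to 1913 in alpha and 252.0 to 290.3 in beta cells in DMSO. Ttr went the other way, at 7864 to 8884 on the alpha DMSO arrays and at the upper bound on all beta arrays. Ins2 and Iapp lay at the upper bound on all beta arrays and between 95.2 and 148.5 on the alpha DMSO arrays. Sst, the delta cell hormone, was read at 17080 to 18300 on the beta DMSO arrays, so bTC3 carried hormone RNAs of other islet cell types.

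DNA replication begins when the origin recognition complex, Cdc6 and Cdt1 load the Mcm2 to Mcm7 helicase onto origins in G1, a step called licensing. At the start of S phase the kinase Cdc7, with Cdc45, the GINS complex and Mcm10, turns the loaded helicase into a moving fork. DNA polymerase alpha and primase then start each strand, polymerase epsilon copies the leading strand, and the clamp Pcna, its loader and the ligase Lig1 serve the lagging strand. Many of these genes are targets of E2F factors, which are released from the retinoblastoma protein when cyclin-dependent kinases phosphorylate it.

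A value is an array intensity on a linear scale, bounded at 20 and 20000, and each gene was read from its brightest probe set. Brightness depends on the probe, so no gene's level was set against another's. The 12 arrays had median intensities of 173.7 to 199.9. The third beta GW8510 array stood apart at 199.9, against 182.0 or less elsewhere, so beta results were also computed without it. Changes are log2 differences of group means with their standard error (SE). Every adjusted p is limma's, corrected over all 12255 genes by the Benjamini-Hochberg method, and "rose", "fell", "higher" and "lower" mean an adjusted p under 0.05.

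In alpha cells 24 of the 34 members fell with GW8510, whereas 21.2% of all genes tested fell. Rrm2 and Orc1 rose, against 20.2% of all genes, and 8 members did not pass. The median change of the members was -0.33 on the log2 scale, where that of all genes was 0.029. The 3 GW8510 arrays lay wholly below the 3 DMSO arrays for 27 members, an order found in 25.5% of all genes. In beta cells 16 members fell, whereas 14.3% of all genes did, 3 rose (Mcm10, Orc1 and Chaf1b), against 19.7%, and 15 did not pass. The median change there was -0.11, beside 0.071 over all genes, and 18 members had all GW8510 arrays below all DMSO arrays, against 17.6% of all genes. Without the third beta GW8510 array, 16 members fell, 3 rose and the median was -0.13. In these bulk samples, fewer cells in S phase and less RNA of these genes per cell cannot be told apart.

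Array by array, the median member stood at -0.36, -0.29 and -0.34 from the alpha DMSO mean on the 3 alpha GW8510 arrays. On the beta GW8510 arrays the same median was -0.16, -0.13 and -0.085 from the beta DMSO mean. On the 6 DMSO arrays it lay between -0.029 and 0.014. The member medians of the GW8510 arrays thus did not overlap with those of DMSO in either line, and the third beta GW8510 array was the nearest to DMSO. Whole arrays also differed. The median log2 intensity over all genes was 8.11 on that array, 7.95 on the other beta GW8510 arrays and 7.99 to 8.02 on the beta DMSO arrays. In alpha cells it was 7.89 to 7.90 with GW8510 and 7.91 to 7.93 in DMSO.

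**Figure D1:**
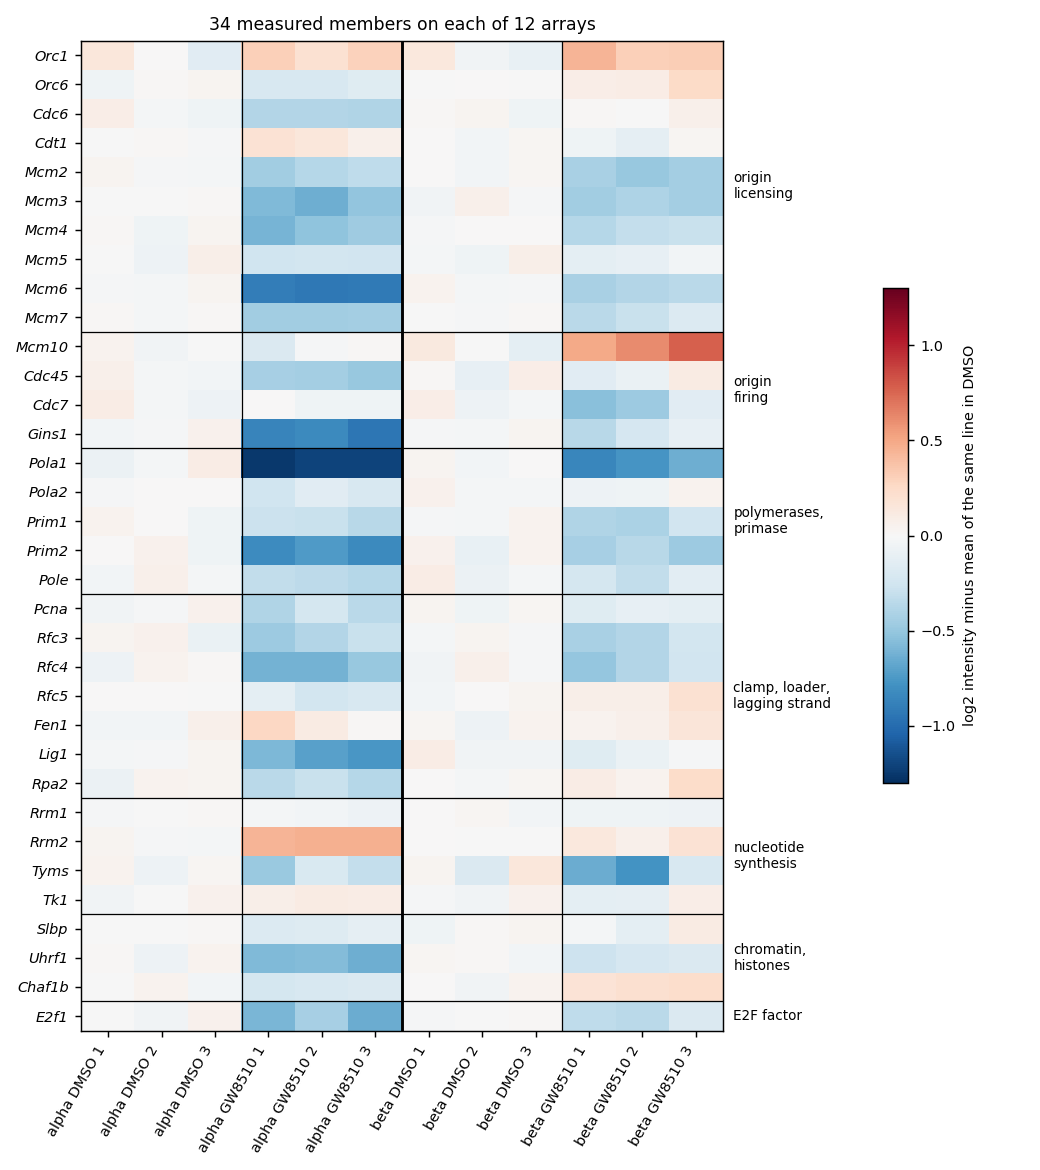
Log2 intensity of the 34 measured members (rows, by function) on each of the 12 arrays (columns), minus the mean of the 3 DMSO arrays of the same line. Blue is below and red above that mean. Pola1, Mcm6 and Gins1 are the deepest blue rows in alpha cells, Mcm10 is red on the beta GW8510 arrays alone, and Rrm2 and Orc1 are red with GW8510.

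Falls in the 2 lines overlapped as follows. There were 14 members that fell in both (Mcm2, Mcm3, Mcm4, Mcm6, Mcm7, Gins1, Pola1, Prim1, Prim2, Pole, Rfc3, Rfc4, Uhrf1 and E2f1), and 9.04% of all genes did so. A further 9 fell in alpha cells and did not pass in beta cells (Orc6, Cdc6, Mcm5, Cdc45, Pola2, Pcna, Rfc5, Lig1 and Rpa2). Cdc7 and Tyms fell in beta cells and did not pass in alpha cells. Cdt1, Fen1, Rrm1, Tk1 and Slbp passed in neither. The alpha and beta comparisons have no array in common, and over the 34 members their log2 changes had a Pearson correlation of 0.653, beside 0.379 over all genes. Genes are not independent replicates, so this is a description. Among the members, each read from its brightest probe set, Pola1 in alpha cells was the only change of at least 2-fold. A dimmer probe set of Mcm6 also changed by more than 2-fold there, by -1.25.

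The upstream sequences of the members with the largest falls (Pola1 and Mcm6, as Gins1 has no entry) and of both that rose (Rrm2 and Orc1) in alpha cells are shown because E2F sites and CCAAT boxes are known features of S-phase promoters. Each is the 150 bases before the gene's start in the RefSeq annotation of GRCm38.p6, 5′ to 3′ on the gene's strand, with matches in capitals.
Pola1 (chrX:93632156-93632305, minus strand): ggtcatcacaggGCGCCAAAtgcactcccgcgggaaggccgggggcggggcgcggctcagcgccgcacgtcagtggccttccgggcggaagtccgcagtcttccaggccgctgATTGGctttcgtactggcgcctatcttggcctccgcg
Mcm6 (chr1:128359706-128359855, minus strand): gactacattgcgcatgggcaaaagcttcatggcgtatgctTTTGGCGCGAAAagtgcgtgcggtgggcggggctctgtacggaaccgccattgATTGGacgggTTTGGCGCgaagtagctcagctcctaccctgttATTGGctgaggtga
Orc1 (chr4:108579304-108579453, plus strand): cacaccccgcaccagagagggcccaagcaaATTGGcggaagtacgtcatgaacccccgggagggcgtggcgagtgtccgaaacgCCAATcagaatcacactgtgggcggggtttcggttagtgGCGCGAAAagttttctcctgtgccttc
Rrm2 (chr12:24708104-24708253, plus strand): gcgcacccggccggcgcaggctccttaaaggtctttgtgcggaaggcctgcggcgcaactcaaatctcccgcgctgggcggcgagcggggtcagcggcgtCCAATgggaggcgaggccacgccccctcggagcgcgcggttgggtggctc
The E2F motif was searched as TTTCCCGC, TTTCGCGC, TTTGCCGC or TTTGGCGC and the CCAAT box as CCAAT, each on both strands. Pola1 and Mcm6, which fell in both lines, and Orc1, which rose in both, each hold an E2F match in this stretch. Rrm2, which rose in alpha cells, holds a CCAAT box and no E2F match there. In Mcm6, 2 of the E2F matches overlap, at -110 and -106 from the start.

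Over the full promoter window, from 250 bases before to 50 after the start, 30 of the 34 members have an entry. The members without one are Mcm4, Gins1, Prim2 and Pole. An E2F match was found in 11 of the 30, beside 4.11% of the 9783 genes tested that have an entry and 2.6% of all 27025 genes of the table. By response in alpha cells, it was found in 9 of 20 members that fell and in 2 of 10 that did not fall, and in the narrower window from 100 bases before to 50 after the start in 5 of 20 and 2 of 10. CCAAT boxes were found in 18 of the 30, beside 42.2% of the genes tested. In the narrower window 7 members held an E2F match, beside 2.22% of the genes tested.

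Origin licensing fell broadly in alpha cells, where 8 of its 10 members were lower, beside 21.2% of all genes. Orc1 was higher there and Cdt1 did not pass. In beta cells 5 fell, beside 14.3% of all genes, and Orc1 again rose. All 5 were subunits of the Mcm2 to Mcm7 helicase. Mcm6 read 5214, 5164 and 5408 in DMSO and 2815, 2753 and 2773 in GW8510 in alpha cells, a change of -0.92 ± 0.047 (SE, adjusted p = 2.19e-08). Its beta arrays read 4242, 4051 and 4066 in DMSO and 3082, 3163 and 3229 in GW8510, a change of -0.38 ± 0.047 (SE, adjusted p = 6.75e-05). In both lines every GW8510 array was below every DMSO array. The alpha arrays were higher than the beta arrays in DMSO, while with GW8510 each alpha array read below each beta array, an order that was not tested. A second Mcm6 probe set changed by -1.25 in alpha and -0.62 in beta cells.

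Mcm2, another helicase subunit, also fell in both lines. Its alpha arrays read 3708, 3564 and 3555 in DMSO and 2641, 2785 and 2863 in GW8510, a change of -0.39 ± 0.051 (SE). The beta arrays read 5092, 4959 and 5148 in DMSO and 3793, 3592 and 3732 in GW8510, a change of -0.45 ± 0.051 (SE). The difference between the lines was -0.066 ± 0.072 (SE), with a 95% interval from -0.22 to 0.092. Mcm3, also of the helicase, was higher in alpha than in beta cells in DMSO and fell in both. Its alpha arrays read 4639, 4625 and 4683 in DMSO and 3119, 2992 and 3259 in GW8510, a change of -0.57 ± 0.052 (SE), and its beta arrays 2067, 2236 and 2121 in DMSO and 1564, 1616 and 1573 in GW8510, a change of -0.43 ± 0.052 (SE). Of its 4 other probe sets, 3 also fell in beta cells, and the dimmest, with a mean intensity of 76.65, changed by 0.008. Mcm4 fell by 0.53 in alpha and by 0.33 in beta cells and Mcm7 by 0.45 and 0.27, on the log2 scale. Mcm5 fell in alpha cells, by 0.25, and its beta change of -0.091 ± 0.057 (SE) did not pass.

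Outside the helicase, the licensing genes did not move together. Orc1, the largest subunit of the origin recognition complex, read 158.6, 144.4 and 129.4 in DMSO and 177.7, 165.3 and 176.9 in GW8510 in alpha cells, a change of 0.27 ± 0.084 (SE, adjusted p = 0.0215), and 169.6, 149.3 and 143.8 in DMSO and 208.4, 190.8 and 191.5 in GW8510 in beta cells, a change of 0.36 ± 0.084 (SE, adjusted p = 0.00612). Its GW8510 arrays were above its DMSO arrays in each line, by a small margin in alpha cells. The alpha call was lost without the second or the third DMSO array or the first or the third GW8510 array, with adjusted p of 0.052 to 0.0977. Orc6, of the same complex, fell by 0.19 in alpha cells and changed by 0.15 ± 0.056 (SE) in beta cells. Cdc6 fell by 0.38 in alpha cells and changed by 0.026 ± 0.054 (SE) in beta cells. Cdt1 changed by 0.14 ± 0.054 (SE, adjusted p = 0.0625) and -0.050 ± 0.054 (SE).

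Among the origin firing genes, Gins1 and Cdc45, parts of the active helicase, fell in alpha cells, and Mcm10 and Cdc7 did not pass there. Gins1 read 921.9, 932.2 and 979.0 in DMSO and 522.5, 533.1 and 492.3 in GW8510 in alpha cells, a change of -0.87 ± 0.067 (SE, adjusted p = 6.04e-07). In beta cells it read 1104, 1103 and 1151 in DMSO and 873.5, 962.4 and 1042 in GW8510, a change of -0.23 ± 0.067 (SE, adjusted p = 0.0205), with no overlap of the groups in either line. That beta call was lost without the third DMSO array (adjusted p = 0.0667) or the first GW8510 array (adjusted p = 0.0789), and with the beta arrays fitted alone (adjusted p = 0.0602). Cdc45 fell by 0.45 in alpha cells and its change in beta cells was -0.039 ± 0.073 (SE).

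Mcm10 rose in beta cells by the largest amount of any member. Its beta arrays read 463.2, 423.5 and 389.8 in DMSO and 598.9, 648.0 and 726.8 in GW8510, a change of 0.63 ± 0.087 (SE, adjusted p = 0.000156), and 0.55 without the third GW8510 array. Its alpha arrays read 436.8, 407.9 and 421.2 in DMSO and 370.3, 416.2 and 426.7 in GW8510 and overlapped, with a change of -0.064 ± 0.087 (SE). A dimmer probe set of Mcm10 changed by 0.13 in beta cells (adjusted p = 0.486), so the rise rests on 1 probe set. Cdc7 went the other way in beta cells. It read 972.4, 880.2 and 905.3 in DMSO and 629.2, 663.8 and 829.9 in GW8510 there, a change of -0.39 ± 0.093 (SE, adjusted p = 0.00674), and -0.51 without the third GW8510 array, the highest of its group. On the alpha arrays Cdc7 read 716.3, 655.8 and 638.2 in DMSO and 673.0, 642.9 and 641.9 in GW8510, which overlapped, and its other probe set, averaged in, ended the beta call (adjusted p = 0.0737).

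The polymerase and primase genes were the most uniform group. Of these, 5 of 5 were lower in alpha cells and 4 of 5 in beta cells, beside 21.2% and 14.3% of all genes. Pola1, which encodes the strand-starting polymerase's catalytic subunit, read 1378, 1425 and 1548 in DMSO and 605.5, 629.5 and 630.0 in GW8510 in alpha cells, a change of -1.22 ± 0.065 (SE, adjusted p = 3.07e-08) to a ratio of 0.429. It read 1688, 1603 and 1645 in DMSO and 915.6, 969.6 and 1062 in GW8510 in beta cells, a change of -0.75 ± 0.065 (SE, adjusted p = 5.14e-06) to a ratio of 0.596, and -0.80 without the third GW8510 array. On the probe sets used it had the largest fall of any member in each line. Its groups lay far apart, and it has 1 probe set. Prim2, the large subunit of primase, read 1218, 1264 and 1168 in DMSO and 689.3, 727.7 and 684.9 in GW8510 in alpha cells, a change of -0.80 ± 0.060 (SE). Its beta arrays read 632.0, 569.9 and 626.9 in DMSO and 450.2, 475.3 and 439.5 in GW8510, a change of -0.42 ± 0.060 (SE), again without overlap. Prim1, the catalytic subunit of primase, fell by 0.31 in alpha and by 0.35 in beta cells. Pole, of polymerase epsilon, fell by 0.34 and 0.23, the latter a call lost without the first DMSO array (adjusted p = 0.07) or the second GW8510 array (adjusted p = 0.0592), or with the beta arrays fitted alone (adjusted p = 0.0519). Pola2, the second subunit of polymerase alpha, fell by 0.21 in alpha cells alone, and averaged with a dim probe set it did not pass (adjusted p = 0.59).

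**Figure D2:**
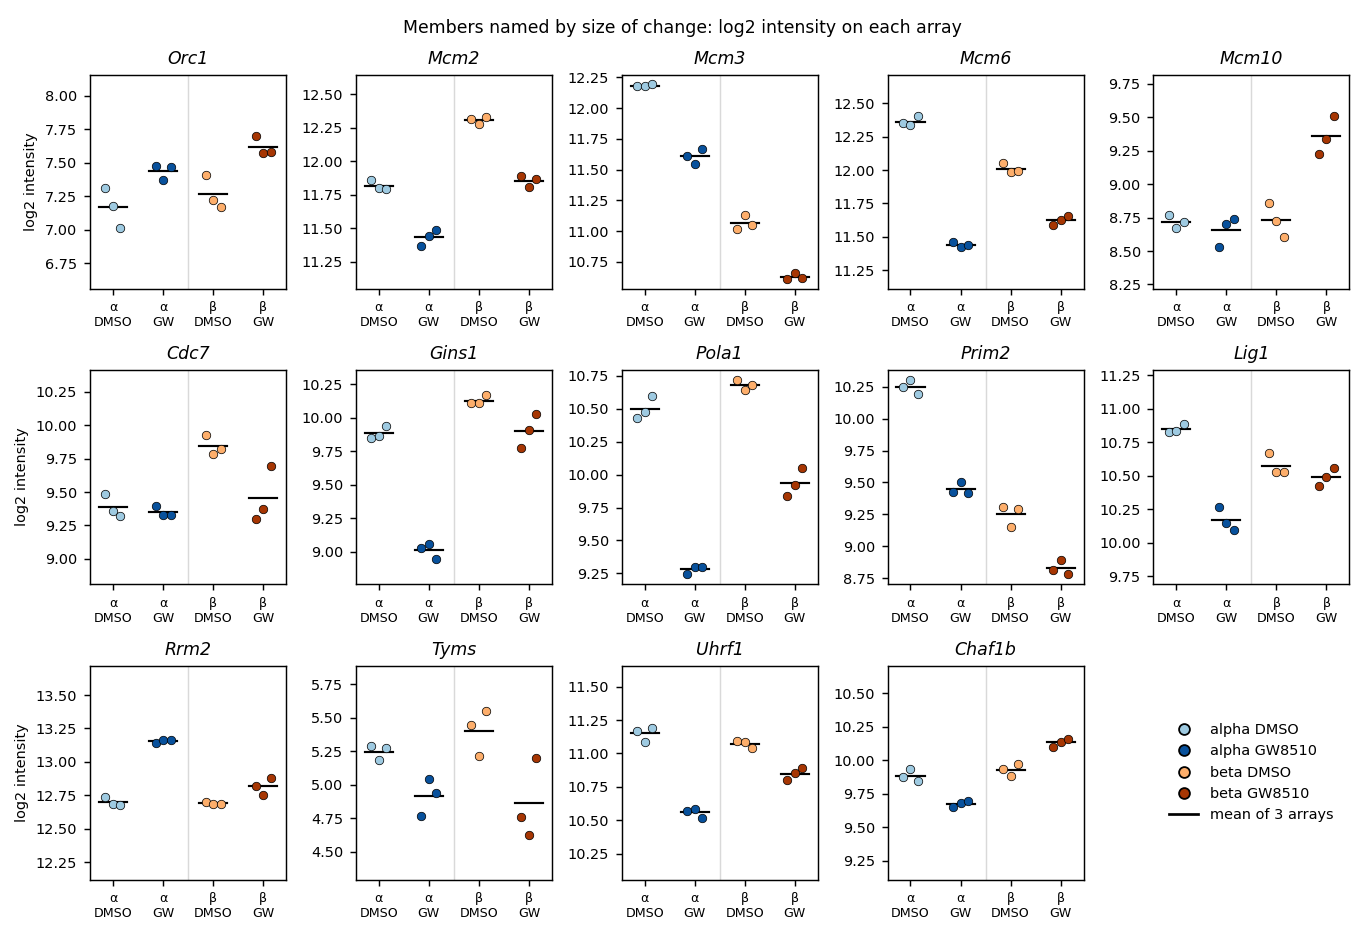
Log2 intensity (y axis, one range per gene) on each array for the 14 members with the largest called changes or differences, in alpha (α) and beta (β) cells with DMSO or GW8510 (GW). Points are arrays and lines are means of 3 arrays. Pola1 drops in both lines, Lig1 drops in alpha cells while its beta arrays overlap, and Mcm10 rises in beta cells.

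Of the clamp, its loader and the lagging-strand enzymes, 6 of 7 fell in alpha cells, beside 21.2% of all genes. In beta cells 2 of 7 fell, beside 14.3%, a count too small to set against that share. Lig1, the ligase that joins Okazaki fragments, read 1816, 1831 and 1896 in DMSO and 1235, 1132 and 1091 in GW8510 in alpha cells, a change of -0.68 ± 0.065 (SE, adjusted p = 3.76e-06). In beta cells it read 1630, 1480 and 1477 in DMSO and 1371, 1437 and 1509 in GW8510, the groups overlapped and the change was -0.087 ± 0.065 (SE, adjusted p = 0.337). The clamp loader subunits Rfc3 and Rfc4 fell in both lines, by 0.38 and 0.58 in alpha cells and by 0.35 and 0.38 in beta cells. Rfc5, of the same loader, fell by 0.19 in alpha cells and changed by 0.11 ± 0.054 (SE) in beta cells. Pcna itself fell by 0.33 in alpha cells, and in beta cells its change was -0.13 ± 0.058 (SE, adjusted p = 0.105) with its GW8510 arrays all below its DMSO arrays. Rpa2, of the complex that coats single-stranded DNA, fell by 0.34 in alpha cells and changed by 0.13 ± 0.061 (SE) in beta cells. Fen1, the flap nuclease, changed by 0.13 ± 0.069 (SE) and 0.090 ± 0.069 (SE) and passed in neither line.

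Of the 4 nucleotide synthesis genes, none fell in alpha cells by limma and 1 fell in beta cells, counts too small to set against the 21.2% and 14.3% of all genes. In each line 2 of the 4, Rrm1 and Tyms, had all GW8510 arrays below all DMSO arrays. At an unadjusted p under 0.05, 1 of the 4 was lower in alpha cells, Tyms, which also passed the adjusted threshold there in 6 of 21 alternative settings. Rrm2, the regulated subunit of ribonucleotide reductase, rose in alpha cells, where it read 6843, 6578 and 6548 in DMSO and 9016, 9162 and 9172 in GW8510, a change of 0.45 ± 0.049 (SE, adjusted p = 1.15e-05). Beta cells read 6651, 6573 and 6593 in DMSO and 7239, 6907 and 7542 in GW8510, a change of 0.13 ± 0.049 (SE, adjusted p = 0.0628). The GW8510 arrays were above the DMSO arrays in both lines, and both other probe sets of Rrm2 rose in alpha cells, by 0.49 and 0.34. In beta cells they changed by 0.26 (adjusted p = 0.0155) and 0.10 (adjusted p = 0.246), and the probe set used passed there in 7 of 22 alternative settings. Rrm1, the large subunit, changed by -0.044 ± 0.044 (SE) and -0.059 ± 0.044 (SE), with 95% intervals from -0.14 to 0.053 and from -0.16 to 0.038. Tk1, which salvages thymidine, changed by 0.093 ± 0.065 (SE) and -0.052 ± 0.065 (SE).

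Tyms, thymidylate synthase, was read near the lower bound of 20. It read 39.12, 36.29 and 38.66 in DMSO and 27.16, 33.05 and 30.70 in GW8510 in alpha cells, a change of -0.33 ± 0.14 (SE, adjusted p = 0.0725), and 43.57, 37.12 and 47.00 in DMSO and 27.10, 24.70 and 36.78 in GW8510 in beta cells, a change of -0.54 ± 0.14 (SE, adjusted p = 0.00856). The GW8510 arrays were below the DMSO arrays in both lines. Its other probe sets, dimmer still at means of 27.1 and 22.81, changed by 0.082 and 0.020 in beta cells, so its fall rests on 1 dim probe set and was lost with their mean (adjusted p = 0.156).

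Of the chromatin genes, Uhrf1, which brings DNA methylation to newly copied strands, fell in both lines. It read 2303, 2179 and 2343 in DMSO and 1524, 1539 and 1468 in GW8510 in alpha cells, a change of -0.59 ± 0.051 (SE), and 2188, 2170 and 2104 in DMSO and 1789, 1853 and 1897 in GW8510 in beta cells, a change of -0.22 ± 0.051 (SE). Chaf1b, a subunit of the histone chaperone CAF-1, was the member called in opposite directions. It read 939.3, 976.9 and 920.7 in DMSO and 805.4, 820.5 and 830.4 in GW8510 in alpha cells, a change of -0.21 ± 0.049 (SE, adjusted p = 0.00445), and 978.2, 941.9 and 1005 in DMSO and 1100, 1128 and 1146 in GW8510 in beta cells, a change of 0.21 ± 0.049 (SE, adjusted p = 0.00624), without overlap in either line. Slbp, which binds the stem-loop of histone mRNAs, changed by -0.15 ± 0.061 (SE) in alpha cells (adjusted p = 0.0639) and by -0.018 ± 0.061 (SE) in beta cells. E2f1 itself fell by 0.56 in alpha and by 0.29 in beta cells. A second E2f1 probe set changed by -0.51 in alpha cells and, short of the threshold, by -0.16 in beta cells (adjusted p = 0.167).

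**Figure D3:**
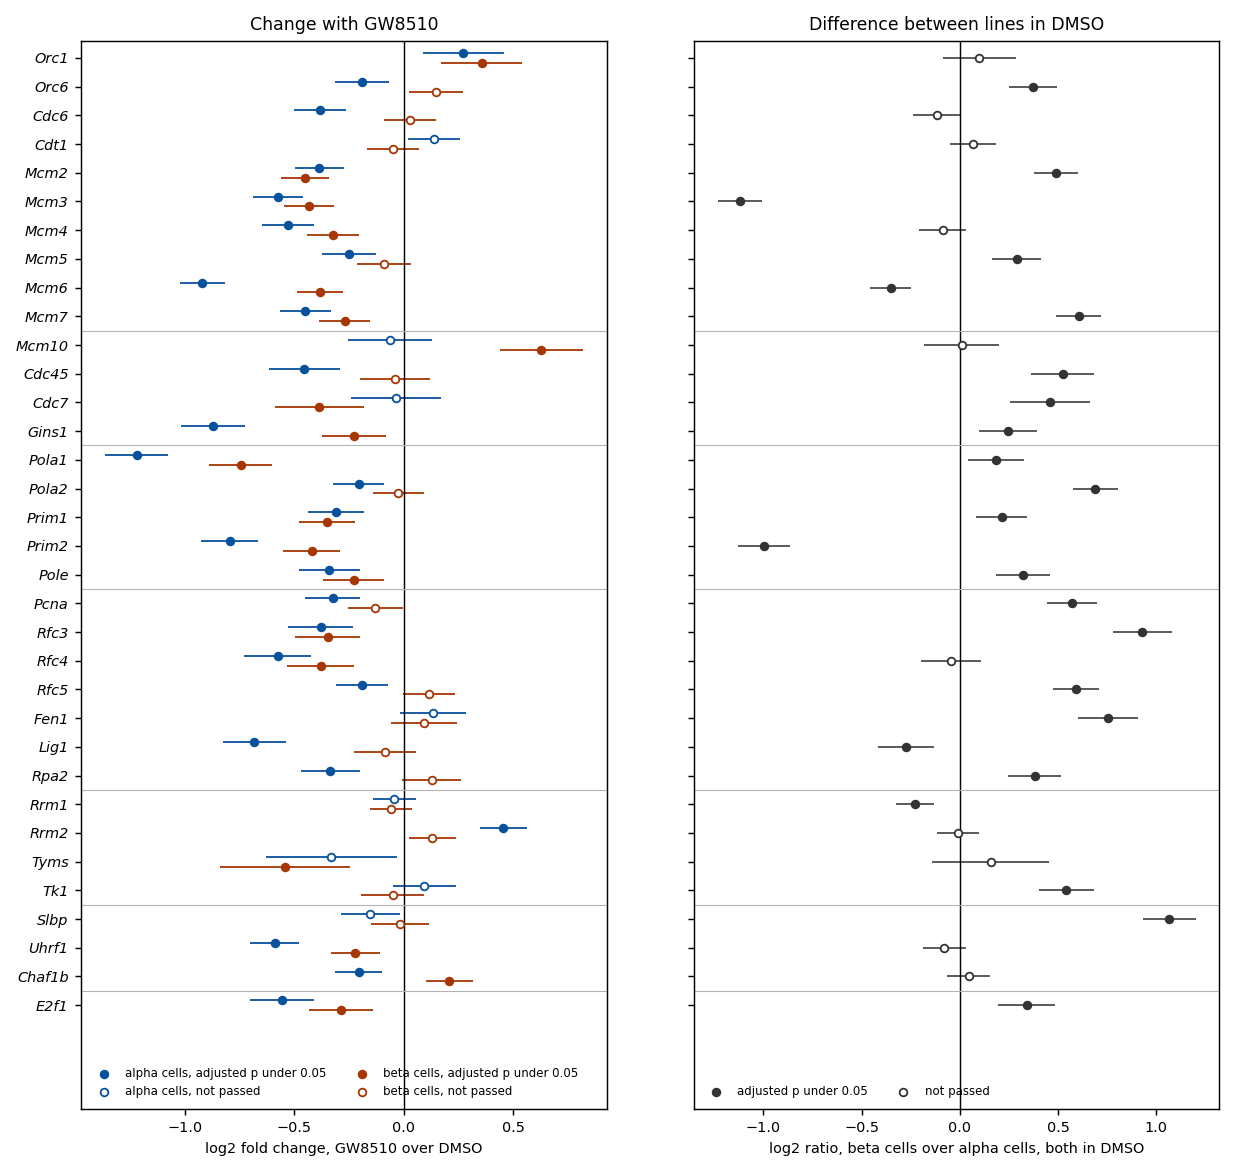
Left, log2 fold change of each member with GW8510 in alpha (blue) and beta (brown) cells; right, log2 ratio of beta over alpha cells in DMSO. Bars are 95% intervals from the limma fit and filled points have an adjusted p under 0.05. Most alpha points lie left of 0 and left of the beta points, and most points on the right panel lie above 0.

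The change itself differed between the lines for 14 members, tested as the beta change minus the alpha change. For 13 the difference was above 0, meaning a smaller fall or a larger rise in beta cells, whereas 16.4% of all genes passed in that direction. Rrm2 was the 1 member below 0, against 12.0% of all genes. The median difference of the members was 0.19, and without the third beta GW8510 array it was 0.15, with 13 members above and 4 below 0. The difference was largest for Mcm10, at 0.69 ± 0.12 (SE, adjusted p = 0.00121), followed by Gins1 at 0.65 ± 0.094 (SE), Lig1 at 0.60 ± 0.092 (SE) and Mcm6 at 0.54 ± 0.067 (SE). For Rrm2 it was -0.32 ± 0.069 (SE, adjusted p = 0.00401). Read from probe sets without an s, x or a mark in their names, neither Mcm10 (adjusted p = 0.807) nor Rrm2 (adjusted p = 0.0664) passed. That probe set of Mcm10 was dimmer, with a mean intensity of 123.2 against 466.6 for the one used. The other probe set of Prim2 gave a difference of 0.33 that did not pass (adjusted p = 0.183). Conversely, Mcm7, Mcm3 and Rfc4 did not pass on the probe set used but did on others, Mcm7 on 3 of 3 (0.31 to 0.43), Mcm3 on 2 of 4 (0.28 and 0.36) and Rfc4 on 1 of 1 (0.36). Of the 14 members that fell in both lines, 12 fell further in alpha cells and for 5 of them that difference passed. The 20 members whose difference did not pass are not shown to respond alike, since the SE of a difference ran from 0.063 to 0.19.

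**Figure D4:**
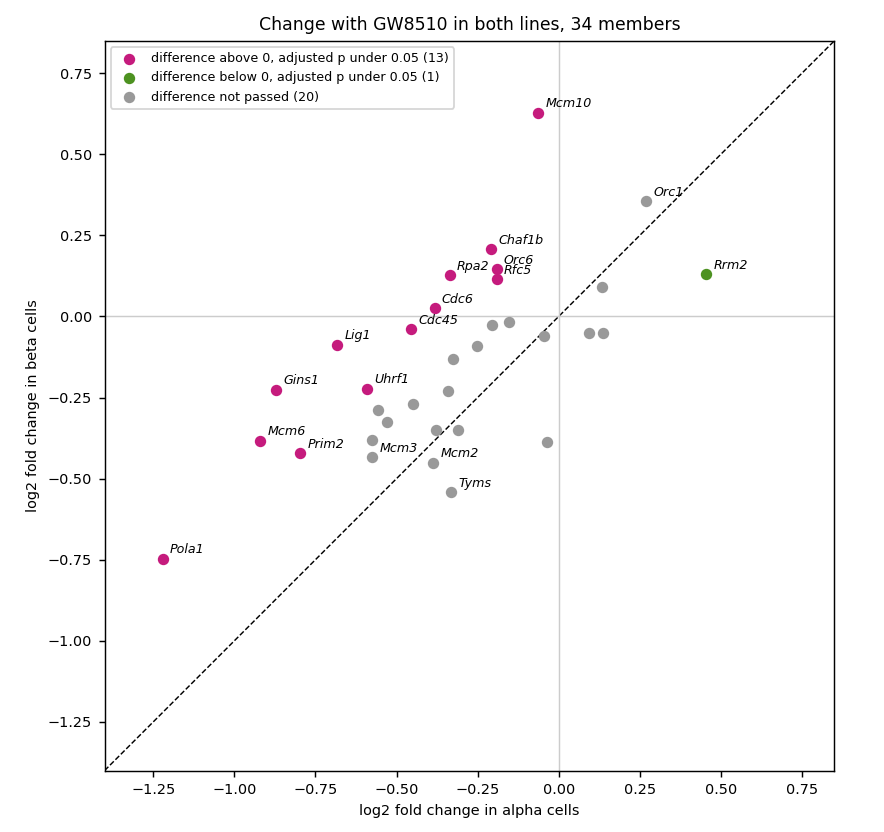
Log2 fold change with GW8510 in beta cells (y axis) against alpha cells (x axis) for the 34 members, each point a gene read on 3 arrays per group. The dashed line marks equal change, and colours mark members whose beta change minus alpha change passed the test. The 13 coloured points above the line include Pola1, which fell in both lines, and Chaf1b, which moved in opposite directions, and Rrm2 alone is coloured below it.

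In DMSO the lines already differed in most of these genes. Of the 34 members, 19 were higher in beta than in alpha cells, where 26.8% of all genes were, 5 were lower (Mcm3, Mcm6, Prim2, Lig1 and Rrm1), where 28.9% were, and 10 did not pass. The median ratio of beta over alpha was 0.23 on the log2 scale, beside -0.048 over all genes. Slbp had the highest ratio, 1.07 ± 0.061 (SE, adjusted p = 1.46e-08), and Rfc3, at 0.93 ± 0.068 (SE), and Fen1, at 0.75 ± 0.069 (SE), followed. Mcm3, at -1.12 ± 0.052 (SE), and Prim2, at -0.998 ± 0.060 (SE), had the lowest. These ratios share the DMSO arrays with the changes above, so no relation between both was tested.

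Other genes of the same pathways, listed by function, were read for comparison. Of 90 such genes 71 were measured. In alpha cells 30 fell and 11 rose, beside 21.2% and 20.2% of all genes, and in beta cells 24 fell and 9 rose, beside 14.3% and 19.7%. The median changes were -0.14 and -0.089, beside 0.029 and 0.071 over all genes. Fork and polymerase genes outside the member list fell in 12 of 18 cases in alpha cells and 8 of 18 in beta cells. Falls were ranked over all 71 genes. In alpha cells the largest were those of Timeless, of the fork protection complex, by 1.05, and Pold1, polymerase delta's catalytic subunit, by 0.92. Ung, which removes uracil from DNA, fell by 0.92 and Rbl1, a relative of the retinoblastoma protein, by 0.87. The largest falls in beta cells were those of Rbl1 and Ung, both by 0.79, of Rb1, the retinoblastoma protein's own gene, by 0.78, and of Tipin, the partner of Timeless, by 0.67. The other probe set of Rbl1 changed less, by -0.39 in alpha and -0.36 in beta cells.

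Nucleotide synthesis was mixed in this wider list. Of 23 genes, 8 were lower and 8 higher in alpha cells, beside 21.2% and 20.2% of all genes. In beta cells 8 were lower and 6 higher, beside 14.3% and 19.7%. Rises were ranked over all 71 other genes measured, not over nucleotide synthesis alone. In alpha cells the largest were those of E2f5, an E2F factor of the repressor class, at 0.61, and Shmt1, of folate metabolism, at 0.60. Impdh1, of guanine nucleotide synthesis, and Gart, of purine synthesis, followed, both at 0.57. In beta cells the largest rises were those of Shmt1 at 0.83 and Impdh1 at 0.68. Dbf4, the activating partner of Cdc7, at 0.52, and Nme1, a nucleoside diphosphate kinase, at 0.48, followed. Other probe sets of Shmt1 changed by -0.28 to 0.41 in alpha cells, and with their mean it did not pass there (adjusted p = 0.0995). In beta cells its other probe sets changed by -0.19 to 0.61 and their mean with it by 0.30. The other probe set changed by 0.27 for Dbf4 and by 0.21 for Nme1 in beta cells.

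Genes of G2 and mitosis give the nearest comparison within the cell cycle, with 38 of 39 measured. In alpha cells 26 fell and 3 rose, beside 21.2% and 20.2% of all genes, with a median of -0.32, close to that of the replication genes. In beta cells 7 fell and 11 rose, beside 14.3% and 19.7% of all genes. The median there was 0.064, beside 0.071 over all genes, where the replication genes had 16 falls and a median of -0.11. The beta change minus the alpha change passed above 0 for 27 of the 38, against 13 of the 34 replication genes and 16.4% of all genes. In DMSO 31 of the 38 were higher in beta than in alpha cells, against 19 of the 34 and 26.8%. Whether the lists differ was not tested.

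Markers of other cell types were read in the same groups. The summed intensity of 3 acinar and duct markers was 569.5 to 579.8 in alpha DMSO and 751.2 to 817.4 in alpha GW8510 arrays, and 170.4 to 202.0 and 241.6 to 273.3 in beta cells. Most of that rise was Cela1, whose mean went from 437.8 to 642.9 in alpha and from 59.51 to 120.6 in beta cells. Cpa1 and Krt19 passed in neither line. For 5 fibroblast markers the sum was 312.2 to 337.0 and 297.4 to 372.4 in alpha cells, and 347.2 to 413.3 and 489.1 to 616.7 in beta cells. Most of the beta rise was Col1a2, whose mean went from 156.9 to 292.2, and the other fibroblast markers did not pass there. For 3 endothelial markers the sum was 140.0 to 178.5 in DMSO and 146.3 to 251.5 in GW8510 over both lines, and for 4 leukocyte markers 202.6 to 235.5 and 209.9 to 291.7. In beta cells alone the leukocyte sum was 202.6 to 216.0 in DMSO and 228.2 to 291.7 with GW8510. Laptm5 rose there, from a mean of 83.01 to 113.3, and the other leukocyte markers did not pass. Ptprc, which defines leukocytes, lay at the lower bound of 20 on 11 of 12 arrays. The sum of 4 beta cell markers was 708.0 to 744.9 in alpha DMSO and 1237 to 1351 in alpha GW8510 arrays. In beta cells it was 44210 to 44390 in DMSO and 43570 to 43960 with GW8510. There Pdx1 and Nkx6-1 fell, while Ins2 and Iapp stayed at the upper bound. The sum of 3 delta and PP cell markers was 156.6 to 165.1 and 200.9 to 228.4 in alpha cells, where Hhex rose. In beta cells the delta and PP sum was 17180 to 18380 and 20090 to 20110, most of it Sst, which reached the upper bound with GW8510. The sum of 3 alpha cell markers was 29690 to 30800 in alpha DMSO and 41110 to 41370 in alpha GW8510 arrays, where Ttr rose, Irx2 fell and Gcg stayed at the upper bound. In beta cells it was 26250 to 26940 and 31580 to 33210. Gcg was read at 11310 to 12890 on the beta GW8510 arrays. The part of these shifts in the changes of the replication genes was not tested.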

How the data were processed

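Gene expression was measured in 12 RNA samples on Affymetrix mouse arrays. The intensities of 22690 probe sets were deposited by the authors, and the submitters' processing notes name RMA, which corrects background, normalizes between arrays and combines probes, with no version given. The deposited intensities are linear and lie between 20 and 20000. RMA writes log2 values, so the authors' return to a linear scale and both bounds are read from the values and not stated.

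Here log2 was taken with no pseudocount. Probe sets naming exactly 1 gene in the platform annotation (20380, of which 20351 were updated by gene ID to the RefSeq table of GRCm38.p6) and off both bounds on at least 1 array were kept, and the brightest of a gene's probe sets over the 12 arrays was used, which left 12255 genes. Of the 34 members, 21 had more than 1 probe set. No filter on dim genes was applied. The fit, by limma 3.58.1 under R 4.3.3, took all 4 groups at once (group means, 4 contrasts, empirical Bayes, 8 residual and 3.52 prior degrees of freedom), and calls were made at an adjusted p under 0.05. The median SE of a change was 0.084 on the log2 scale, a precision limited by 3 arrays per group. The sources name no test for the arrays and speak of matched DMSO controls without saying what matched them.

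Members with the 6 largest called falls and rises in each line and the 4 largest called differences each way are given array by array. Of the other pathway genes, the 4 largest called changes each way in each line are named. Members and lists were chosen with earlier results of these data known, so their counts are descriptions. Alternatives were the normalization, the probe set, a filter on the dimmest 25% of genes, own arrays only, a pseudocount of 16, the estimate of spread, array weights, a replicate block, each array left out, and a narrower promoter window. Figures were drawn with matplotlib 3.10.9 in Python 3.11.15.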

Additional observations from a re-analysis of the deposited data

Results flagged for a closer look

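The response to GW8510 differed between the cell lines for 14 of the 34 members, by limma's test of the beta change minus the alpha change, with adjusted p of 0.0101 or less. On the log2 scale the difference was above 0 for Mcm10 (0.69), Gins1 (0.65), Lig1 (0.60), Mcm6 (0.54), Pola1 (0.47), Rpa2 (0.46), Cdc45 (0.42), Cdc6 (0.41), Chaf1b (0.41), Prim2 (0.38), Uhrf1 (0.37), Orc6 (0.34) and Rfc5 (0.31). Rrm2 stood below 0, at -0.32. Among the 13 above 0, 12 fell in alpha cells, and Mcm10 rose in beta cells.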

How the results depend on the processing

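Array number limits the precision, and Tyms was too dim for a firm value. The members' medians kept their sign in all settings run, and counts not named here stayed within 1.5 times those reported. In alpha cells 5 members rose under array weights, and 1 to 3 with an array left out. In beta cells 5 rose under median centring, the filter on dim genes, and the trended, robust spread, and 3 to 4 with an array left out. Differences below 0 numbered 4 under quantile normalization, 3 under median centring, 0 with probe sets lacking an s, x or a mark, 2 with the dim filter, 3 with the trended, robust spread, 5 with array weights, and 1 to 4 with an array left out. The median difference was 0.14 under array weights and 0.15 to 0.21 with an array left out. In DMSO, median centring put 8 members lower in beta cells, with a median ratio of 0.14. The narrower promoter window held an E2F match in 7 members. Single probe sets reversed Pola2 in alpha cells (0.10) and in the DMSO ratio (-0.062), Mcm3 in beta cells (0.008), and Tyms in beta cells (0.082 and 0.020) and in the DMSO ratio (-0.23); the cause was not tested.

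Further calls lost under other settings were those of Mcm10 (adjusted p = 0.483) and E2f1 (0.165) in beta cells with probe sets lacking a mark, Orc6 in alpha cells without the second (adjusted p = 0.0524) or the third (0.0566) DMSO array, Rfc5 in alpha cells without the second GW8510 array (0.0548), and Pola1 in the DMSO ratio under median centring (0.128) and without the first or second alpha or the first or the third beta array (0.0662 to 0.119). In alpha cells 21 of 24 falls and 1 of 2 rises kept their call in all settings run apart from other single probe sets, and in beta cells 11 of 16 falls and 2 of 3 rises did. Deviations of same-numbered arrays from their group means had correlations from -0.295 to 0.137, best with the own number in 9 of 36 cases. With 3 arrays per group these values cannot show whether replicate numbers pair the arrays. A replicate block left 24 falls and 2 rises in alpha cells, 16 and 3 in beta cells, and changed no call.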
